A study of Mus musculus with 2 samples.

Results

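On the array, 2240 isolated SmaI/XmaI fragments of the mouse genome gave little signal in the paraventricular nucleus (PVH) and in the arcuate nucleus (ARH) of the hypothalamus. They were chosen from a table of 23738 listed intervals, each taken as one restriction fragment. An interval was isolated when it lay on an autosome, had no other listed interval within 20000 bp of either end and held at least 2 probes, which was so for 6787 intervals. A member then had a mean log2 processed signal under 8.2, an intensity of 294, over its probes, both nuclei and both arrays. Members were 33.0% of the isolated fragments and 9.82% of the 22801 autosomal intervals with at least 2 probes. The table lists intervals of 200 to 2000 bp only, so a restriction site whose fragments fall outside these lengths did not count as a neighbour. Since the signal chose the members, their levels are given as a description with no test. The lengths, the place of a probe along its fragment and the ratio between the nuclei were not used to choose them. The distance to other listed intervals and the limit to autosomes were part of the rule.

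The study compared genomic DNA of PVH and ARH at postnatal day 10 in C57BL/6 mice of mixed sex, with 7 dissected pieces in each pool. There were 2 arrays, which the labels call biological replicates, and on each a pool of PVH was hybridized with a pool of ARH. The dyes were swapped, PVH being in Cy5 on replicate 1 and in Cy3 on replicate 2. The labels disagree on the second nucleus: the sample names give ARH, while the ventromedial nucleus is named in the title of the series and in that channel's tissue tag; ARH is used here. Genomic DNA gives no marker genes by which the dissection could be checked.

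In mammals most CpG sites carry a methyl group on the cytosine, and stretches rich in CpG, such as many promoters, are the usual exception. Methylation-specific amplification reads this at CCCGGG sites. SmaI cuts only where the CpG in the middle is free of methylation, to blunt ends, and XmaI then cuts the methylated sites that are left and gives cohesive ends to which adaptors join. PCR therefore amplifies a fragment whose sites at both ends were methylated, and a fragment with an unmethylated end is lost. A dim fragment is read by this assay as unmethylated at one end at least, but its signal also passes through ligation, PCR, labelling and hybridization. In pooled tissue, methylation in few cells and loss of product cannot be told apart. The files name no genes, no annotation of build mm8 was used here and no file holds the fragments' sequences, so members are given by their mm8 positions.

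The signal of members lay above the median negative control spot but near the upper range of those spots. The median member had an intensity of 82.5 in PVH and 91.2 in ARH on replicate 1, and of 94.8 in PVH and 97.4 in ARH on replicate 2. The 95th percentile of the 1196 negative control spots lay at 95.5, 83.9, 71.7 and 75.1 in the same channels, and their median between 5.34 and 7.23. In all 4 channels, 850 members were at or under that percentile and 954 were above it. Of the 8484 probes in members, 64.8% were well above background in all channels by the flag of the scanner software and 19.7% in none, against 99.9% and 0.00593% of the probes of brighter isolated fragments. A group of 878 members had every probe well above background in all channels, and 101 had no such probe in any channel.

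The label of being dim in both nuclei held for most but not all members. Both the PVH mean and the ARH mean were under 8.2 in 2149 of the 2240. PVH alone reached the limit in 47 and ARH alone in 44, and the highest of these means was 8.75. All 4 channels were under 8.2 in 1957. The limit cuts through a continuous range of signal: 178 members lay less than 0.2 under it, and 171 isolated fragments lay less than 0.2 above it. The members nearest to it had means of 8.19 and more. On chr8:77890002-77890257 the intensities were 373 and 346 in PVH and ARH on replicate 1 and 257 and 225 on replicate 2. Just outside, chr1:140779923-140780330 had 359 and 317, then 264 and 250, so it was the dimmer of the pair on replicate 1 and the brighter on replicate 2.

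The dimmest members were at the level of the median negative control spot. The lowest, chr8:40998842-41000730, had intensities of 6.10 and 5.58 in PVH and ARH on replicate 1 and of 6.65 and 4.67 on replicate 2. All of its 4 probes lay between 5.69 and 5.72. The next 4 were chr4:51808100-51809794, chr12:9830078-9831711, chr1:129554895-129556541 and chr13:77634811-77636682, with mean log2 signals of 2.58 to 2.63. None of the probes of these 5 members was well above background in any channel. They were 1634 to 1889 bp long, so all 5 were long fragments.

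Members were mostly long fragments. Their median length was 1512.5 bp, against 737 bp in isolated fragments at or above the limit. Of members 58.2% were longer than 1400 bp, against 10.8% of the brighter isolated fragments, while 13.0% of members had at most 400 bp. Dim fragments that were not isolated were often long too, with a median of 1324 bp and 46.1% over 1400 bp. The share of isolated fragments that were dim was lowest at 601 to 800 bp, where 84 of 817 (10.3%) were members. It rose with length to 34.9% at 1201 to 1400 bp, 57.7% at 1401 to 1600 bp, 72.9% at 1601 to 1800 bp and 88.8% (523 of 589) at 1801 to 2000 bp. It was also higher at the short end, at 23.4% (291 of 1241) for 200 to 400 bp. Length was not used by the rule, and its part in the low signal was not tested.

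**Figure D1:**
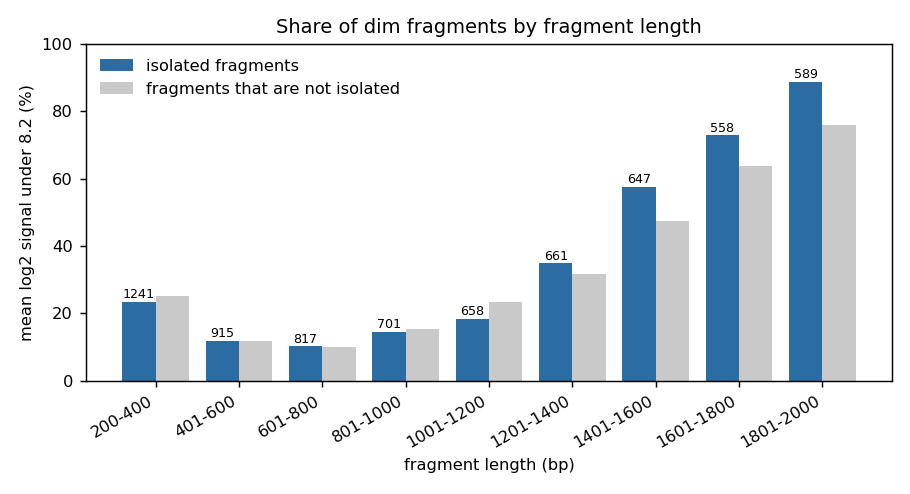
Share of fragments with a mean log2 signal under 8.2 (%) by fragment length (bp), for isolated fragments (blue, with the number of fragments above each bar) and for autosomal fragments that are not isolated (grey). Among isolated fragments the share is 10.3% at 601 to 800 bp, 23.4% at 200 to 400 bp and 88.8% at 1801 to 2000 bp.

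Fragments that were not isolated had a like course at up to 1000 bp, with a dim share of 25.2% at 200 to 400 bp and 10.0% at 601 to 800 bp. Above 1400 bp the isolated fragments were dim more often in these data, with 57.7% against 47.5%, 72.9% against 63.7% and 88.8% against 75.9% in the 3 longest classes. These shares are over fragments of the same arrays and have no test. Over all lengths, 28.4% of the fragments that were not isolated were dim.

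Short and long members differed in level. Members of 200 to 400 bp had a median log2 signal of 7.66, with 90.5% of their probes well above background in all channels, and those of 1801 to 2000 bp had 5.76 with 53.1%. Of the 209 members under a mean of 4, 76.6% were longer than 1400 bp, against 39.0% of the 879 members between 7 and 8.2. The 3 shortest members were 200 bp long. On chr4:116375554-116375753 the intensities were 149 and 130 in PVH and ARH on replicate 1 and 78.8 and 68.6 on replicate 2, so the arrays differed more than the nuclei. The 200 bp fragment at chr19:3389198-3389397 had 143 and 126, then 139 and 127, and that at chr16:42795519-42795718 had 183 and 167, then 195 and 189. At the other end, the 2000 bp member at chr1:137732883-137734882 had 26.1 and 19.7, then 17.0 and 23.3, well under the shortest members in every channel.

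The probes themselves differed between dim and brighter fragments, in opposite ways at the 2 ends of the length range. Probes on this array are 45 to 60 bases long. Arrays of this kind use shorter probes where the sequence melts at a higher temperature, as in stretches rich in G and C, so probe length is a coarse guide to base composition. In members of 200 to 400 bp, 75.4% of probes had 45 bases, against 57.3% in brighter isolated fragments of that length. At 1801 to 2000 bp, 60.5% of the members' probes had 60 bases, against 29.9% in the brighter fragments. Short members thus carried more of the shortest probes, and long members more of the longest. The shares of 60-base probes crossed between 801 and 1200 bp, with 37.0% against 39.4% and then 46.3% against 43.1%.

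**Figure D2:**
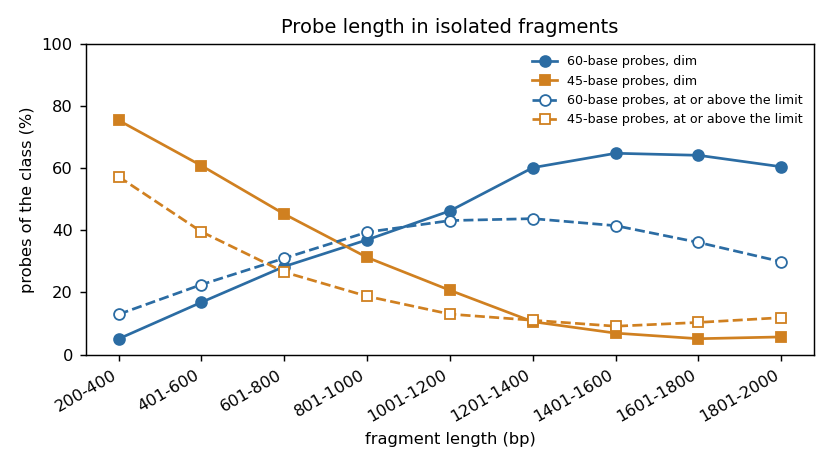
Share of probes (%) that have 60 bases (blue) or 45 bases (orange) by fragment length (bp), in members (filled symbols, solid lines) and in isolated fragments at or above the limit (open symbols, broken lines). At 200 to 400 bp 75.4% of the members' probes have 45 bases, and at 1801 to 2000 bp 60.5% have 60 bases.

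Within a fragment the shorter probes were the brighter ones. In the 345 members with probes of both 45 and 60 bases, the 45-base probes had the higher log2 signal in 304 (88.1%), by a median of 2.33. In 791 brighter isolated fragments the median difference was 0.50 on the log2 scale, and the 45-base probes were brighter in 541 (68.4%). Its part in which fragments fell under the limit was not tested.

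Probes of one member often disagreed. The median range between the dimmest and the brightest probe was 2.42 on the log2 scale in members, 1.59 in brighter isolated fragments and 2.65 in dim fragments that were not isolated. The range was over 3 in 847 members (37.8%), and 945 members had a probe at or above 8.2. The widest range, 10.76, was on chr18:24693588-24695491. Its 3 probes had mean log2 signals of 2.67, 6.62 and 13.43, and the last of these had intensities of 14033 and 11133 in PVH and ARH on replicate 1 and of 8621 and 10995 on replicate 2. On chr13:3180198-3182143 one 45-base probe was at 13.90 and the other 3 at 4.80, 7.73 and 6.25. The member at chr7:27382890-27383228 had probes at 2.70, 7.50 and 11.57, that at chr1:21316976-21318892 from 2.56 to 11.38, and that at chr14:77337762-77338500 from 3.05 to 11.49. In each of these 5 members the brightest probe was far above the limit and the dimmest far below it, so the mean describes neither. The brightest probe had 45 bases in all but the chromosome 1 fragment, where it had 60.

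In the long members the signal was lowest in the middle. Among probes of members over 1400 bp, the median intensity was 101 for those under 100 bp from an end, 76.4 at 200 to 399 bp, 58.0 at 400 to 599 bp and 41.5 at 600 bp or more. The share of probes well above background in all channels went from 70.8% to 46.1% over these classes. In brighter isolated fragments of the same length the intensities were 801, 773, 702 and 509. In the 516 long members with probes both in the outer 0.1 of the length at an end and between 0.4 and 0.6 of it, the outer probes were brighter in 356 (69.0%), by a median of 0.85 on the log2 scale. The median was 1.04 in PVH and 1.05 in ARH on replicate 1 and 0.63 and 0.78 on replicate 2, so it had 1 direction in all 4 channels.

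Probe length changed along the fragment too, in members and in brighter isolated fragments. In members, 43.1% of the probes in the first 0.1 of the length and 42.5% in the last 0.1 had 60 bases, against 55.8% and 55.5% on the 2 sides of the middle. In brighter isolated fragments the shares were 21.8% and 21.0% at the ends, against 36.1% and 33.3%. With 60-base probes alone, the ends of the 219 long members that could be compared were still brighter, in 144 (65.8%) and by a median of 0.62. Over fragments of all lengths, brighter isolated fragments had the other sign, with a median of -0.12 in 1566 fragments, but it was 0.25 in the 208 of them over 1400 bp. With 60-base probes alone, 31 of these long brighter fragments could be compared, and their median was 0.86, no smaller than that of the members. Brighter ends were thus seen in long fragments on both sides of the limit. At shorter lengths the sides differed in sign. With all probes, the members' medians were 0.22, 0.13 and 0.29 at 200 to 400, 401 to 1000 and 1001 to 1400 bp. Those of brighter isolated fragments were -0.02, -0.27 and -0.15.

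**Figure D3:**
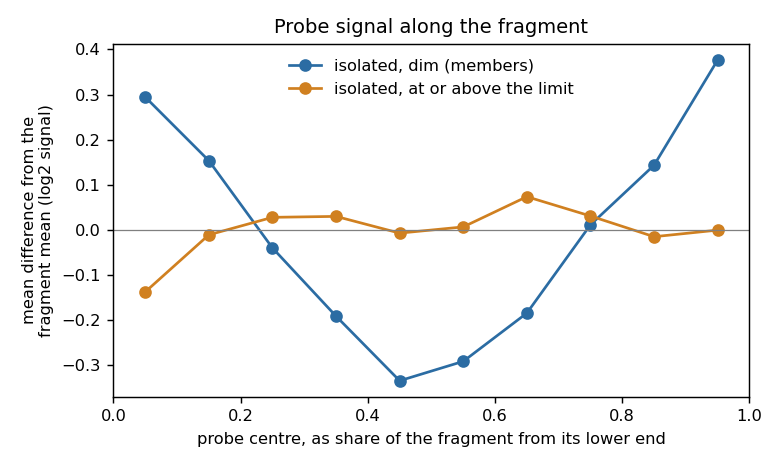
Mean difference of a probe's log2 signal from the mean of its fragment, by the position of the probe centre along the fragment (share of the length from the end with the lower coordinate), for members (blue) and isolated fragments at or above the limit (orange). Members run from 0.29 at one end through -0.33 near the middle to 0.38 at the other end, and the brighter fragments stay between -0.14 and 0.07.

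Members tended to lie farther from other listed fragments than brighter isolated fragments did. The rule set the same least distance for both groups, so only the contrast between them is informative. The median distance to the nearest listed interval was 64982 bp, against 53344 bp for brighter isolated fragments, and 34.3% of members against 26.0% were more than 100000 bp away. The dim share of isolated fragments was 27.7% at distances of 20001 to 30000 bp and 41.9% above 200000 bp. In fragments over 1400 bp it went from 65.2% to 85.3% over the same classes, and in those of up to 1000 bp from 12.2% to 18.3%. A higher share at the largest distances was thus seen in long and in short fragments. The most remote member, chr3:112580200-112581881, was 2201109 bp from the next listed interval, with intensities of 54.7 and 63.0 in PVH and ARH on replicate 1 and of 61.0 and 66.5 on replicate 2. The next were chr15:15111974-15113557, at 1990850 bp, and chr16:62863617-62865077, at 1928704 bp. The nearest listed interval was itself under the limit for 793 of 2180 members with a measured neighbour (36.4%) and for 1361 of 4462 brighter isolated fragments (30.5%).

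Members were found on all 19 autosomes. Their share of the isolated fragments was lowest on chromosome 7, with 109 of 437 (24.9%), and highest on chromosome 18, with 96 of 244 (39.3%). Long fragments were less common on chromosome 7, where 26.1% of the isolated fragments were over 1400 bp, than on chromosome 18 with 30.7%. Not all chromosomes followed this order: on chromosome 14 only 21.2% were over 1400 bp, and 34.5% were members. Among isolated fragments over 1400 bp, 58.8% were members on chromosome 7, 78.7% on chromosome 18 and 87.9% on chromosome 3.

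The comparison of the nuclei asks whether fragments that were dim overall still differed between PVH and ARH. It rests on the log2 ratio of PVH over ARH, positive where PVH had more signal, which the rule did not use. After leaving out probes that were not well above background in either channel of an array, 1805 members kept at least 2 probes and were tested. A probe could thus stay through the nucleus where it was higher, with the other nucleus not clear of background. The other 435 members were dimmer, with a median log2 signal of 4.08 against 6.94. Of all 22350 intervals tested, 311 (1.39%) differed at an adjusted p under 0.05 in limma, 0.944% being lower and 0.447% higher in PVH. Among members 16 of 1805 (0.886%) differed, a smaller share than this background: 14 were lower and 2 higher in PVH. In brighter isolated fragments 85 of 4545 (1.87%) differed, and in dim fragments that were not isolated 35 of 4091 (0.856%), about the members' share. The calls need care, since on simulated data the same test called more unchanged intervals than its threshold allows. The test also gave every interval the same standard error of 0.26, so no p-value below weighs the SD printed beside it. No test set these shares against each other. Of the 16, 6 were longer than 1400 bp and 6 had at most 1000 bp, but more of the tested members were long. In order of length, the classes up to 1000 bp had 3 of 269, 1 of 97, 1 of 71 and 1 of 85 tested members called. The classes over 1400 bp had 2 of 298, 2 of 310 and 2 of 379.

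**Figure D4:**
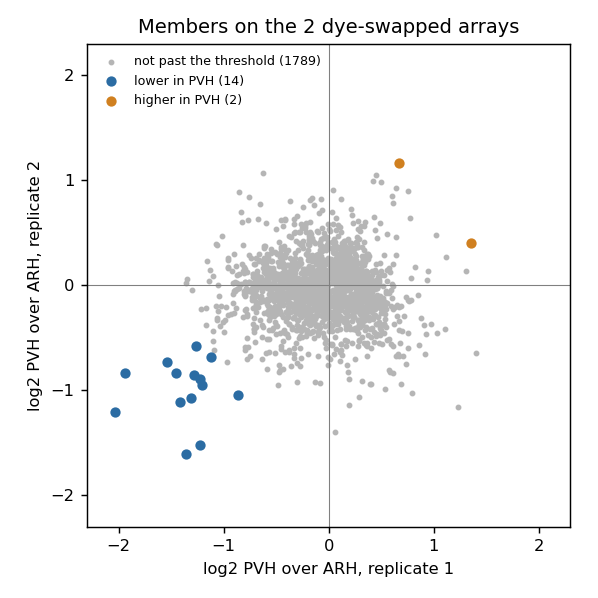
Log2 ratio of PVH over ARH for the 1805 tested members on replicate 1 (x axis) and replicate 2 (y axis), with those lower in PVH (14, blue) and higher in PVH (2, orange) at an adjusted p under 0.05 in limma; the other members are grey. Over all 1805 members r is 0.028, and the called members lie at its lower left and upper right.

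The largest difference was on chr18:15205370-15206170, a fragment of 801 bp. Its PVH intensity was 125 on replicate 1 and 158 on replicate 2, and its ARH intensity 513 and 363. Both PVH values lay under both ARH values. PVH was 3.08-fold lower, with a log2 ratio of -1.62 ± 0.59 (SD, 2 arrays; adjusted p = 1.8e-07, limma). The difference was uneven along the fragment: its 3 leftmost probes had ratios of -2.60, -2.83 and -2.23 on replicate 1 and of -1.68, -1.62 and -1.08 on replicate 2, while the rightmost was at -0.51 and -0.46.

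On chr10:92023916-92025454, of 1539 bp and 565350 bp from the next listed interval, PVH was at 63.5 and 68.0 and ARH at 162 and 207 on replicates 1 and 2. The 2 PVH values were close together and under both ARH values. PVH was 2.80-fold lower, with a log2 ratio of -1.49 ± 0.18 (SD, 2 arrays; adjusted p = 3.3e-06, limma). From left to right its probes had ratios of -0.15, -0.86, -2.00 and -2.45 on replicate 1 and of -1.05, -1.41, -2.02 and -1.96 on replicate 2. The right part of this fragment thus carried most of the difference on both arrays.

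The short member on chr14:59333266-59333562 had 297 bp and only 2 probes. PVH was at 86.0 and 167 and ARH at 328 and 295 on the 2 arrays. Both PVH values were the lower ones, but they were far apart, and the log2 ratio was -1.38 ± 0.78 (SD, n = 2 arrays; adjusted p = 2.5e-05, limma). This p-value does not weigh the large SD of the fragment. One probe on replicate 1, with a ratio of -3.34 against -1.02 on replicate 2, set much of the mean.

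On chr13:49471915-49473801, of 1887 bp, PVH was at 36.7 and 32.8 and ARH at 85.3 and 93.5. The nuclei were apart on both arrays, and PVH was 2.59-fold lower (log2 ratio -1.37 ± 0.21, SD over 2 arrays; adjusted p = 3.2e-05, limma). In PVH only 1 of its 4 probes stood well above background on both arrays, and 2 did so on neither. It was therefore not tested where only probes well above background in all channels were kept. With normexp, which here started from median spot signals and added an offset of 50, its ratio was -0.44 without loess and -0.51 with it; the cause was not tested.

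The member on chr15:8728458-8728748 had 291 bp. PVH was at 124 and 194 and ARH at 331 and 418, with the PVH values under both ARH values. PVH was 2.40-fold lower, with a log2 ratio of -1.27 ± 0.22 (SD, 2 arrays; adjusted p = 0.0002, limma). Its 4 probes lay between -1.63 and -1.09 on replicate 1 and between -1.19 and -1.07 on replicate 2, and all were well above background in every channel.

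These 5 were also the members that passed when a trend of the ratio on fragment length was removed on each array. The other 11 kept ratios of a like size there, from -1.20 to -0.81 in the 9 lower ones and 0.96 and 1.03 in the 2 higher ones, with adjusted p from 0.059 to 0.29 in limma. The other 9 members lower in PVH had mean log2 ratios from -1.19 to -0.90, with adjusted p from 0.00071 to 0.034 in limma. With every probe well above background in all channels were chr16:29691558-29692231 (-1.15 ± 0.43), chr6:6339298-6339887 (-1.08 ± 0.18) and chr11:80793354-80793611 (-0.90 ± 0.31; SD, n = 2 arrays). On the chromosome 6 fragment PVH was at 153 and 239 and ARH at 351 and 460. Its 4 probes lay between -1.43 and -0.87 on replicate 1 and between -1.04 and -0.89 on replicate 2, so they were alike along the fragment. The chromosome 11 fragment had PVH at 149 and 308 and ARH at 323 and 493; PVH on replicate 2 nearly reached ARH on replicate 1.

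These 5 and the 3 just named lost the call with normexp alone, as all 16 did. The remaining 6 of these 9 had probes that did not stand clear of background in PVH. They were chr5:20978229-20979390 (-1.19 ± 0.16), chr14:8293841-8295399 (-1.14 ± 0.57), chr2:115670214-115671816 (-1.07 ± 0.30), chr8:37485326-37486666 (-1.06 ± 0.23), chr14:11181933-11183630 (-0.96 ± 0.13) and chr6:51048640-51050456 (-0.92 ± 0.48; SD, n = 2 arrays). Their PVH intensities lay between 17.3 and 63.2 and their ARH intensities between 27.9 and 105. These intensities are over all 4 probes of a fragment. The ratio rests on only 3 of them on chr5:20978229-20979390, and on 2 on chr8:37485326-37486666 and chr14:11181933-11183630. None of these 6 passed under normexp with or without loess. With only probes well above background in all channels, chr14:8293841-8295399 (-0.94) and chr8:37485326-37486666 (-1.06) kept the call. On chr6:51048640-51050456 the ratio was then -0.59 (adjusted p = 0.48, limma). The rest of this list had too few such probes to be tested. With no filter on dim probes, chr14:11181933-11183630 lost the call at -0.75 (adjusted p = 0.13, limma), and the rest of the list kept it. On chr14:11181933-11183630 no probe was well above background in PVH on either array, so PVH has only a bound there: after loess and quantile scaling of the average signal the ARH signal was at least 1.01-fold higher (adjusted p = 0.019 in limma for the ratio as measured).

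Of the 2 members higher in PVH, chr19:53884602-53885614 had PVH at 203 and 358 and ARH at 127 and 159. Both PVH values exceeded both ARH values, and the log2 ratio was 0.91 ± 0.35 (SD, n = 2 arrays; adjusted p = 0.03, limma). All of its 4 probes were higher in PVH on both arrays, by 0.45 to 1.04 on replicate 1 and by 0.92 to 1.52 on replicate 2. On chr6:144778593-144779984 PVH was at 360 and 188 and ARH at 140 and 141. The ratio was 1.36 on replicate 1 and 0.40 on replicate 2 (mean 0.88 ± 0.67; adjusted p = 0.043, limma), and 1 of its 4 probes changed sign between the arrays. This call was lost under 7 of 13 alternatives, with an adjusted p from 0.0059 to 0.47 in limma.

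**Figure D5:**
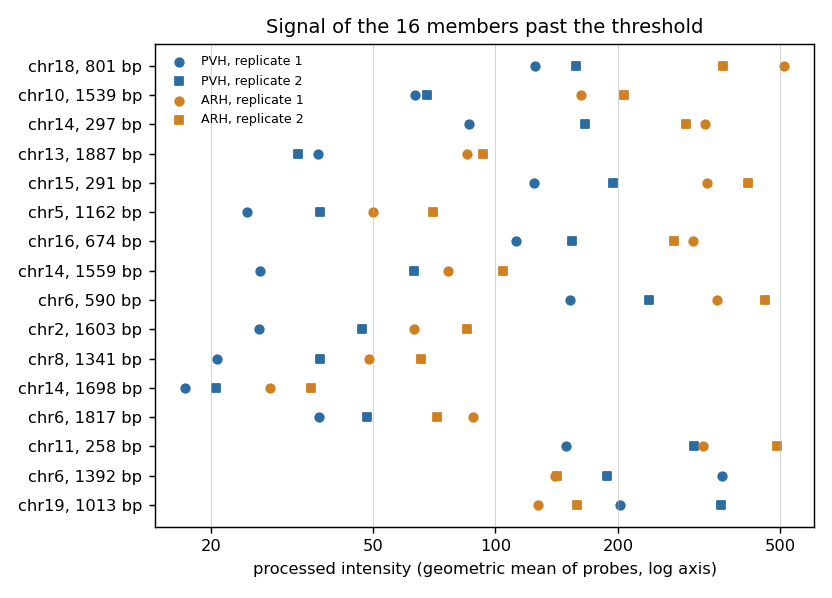
Processed intensity (log axis, geometric mean over the probes) of the 16 members past the threshold, each in PVH (blue) and ARH (orange) on replicate 1 (circles) and replicate 2 (squares); rows give chromosome and fragment length and are ordered by the mean log2 ratio. PVH lies to the left of ARH in the 14 upper rows and to the right in the 2 lower rows.

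Other members had ratios near 0 on both arrays. On chr10:42709895-42710560, of 666 bp, PVH was at 257 and 246 and ARH at 259 and 247, with log2 ratios of -0.02 and -0.01. All of its 4 probes were well above background in every channel. The ratios of chr16:38661390-38661642 (-0.01 and 0.01) and chr2:10896477-10898284 (-0.01 and 0.02) were as small on both arrays. These 3 were chosen for their small ratios.

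Over all tested members, the called ones included, the 2 arrays had little in common in the ratio. Pearson's r over the 1805 members was 0.028 and Spearman's rho -0.027, against 0.088 and -0.032 over all 22350 intervals; fragments share the arrays and are not independent replicates. The sign was the same on both arrays in 931 members (51.6%). A size of at least 1.5-fold lower on both arrays was reached by 21 members (1.16%, against 1.61% of all intervals), of 1.5-fold higher by 6 (0.332% against 0.689%), and of 1.5-fold in opposite directions by 22 (1.22% against 0.953%). In members that size was thus seen about as often in opposite directions as in a common lower one. By signal, r was 0.19 in the 877 tested members between 7 and 8.2, 0.0047 in the 492 between 6 and 7, -0.07 in the 332 between 5 and 6 and -0.27 in the 102 between 4 and 5.

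The median ratio of the tested members was -0.046, against 0.012 for all intervals, and was -0.043 on replicate 1 and -0.032 on replicate 2. The medians of all intervals on the single arrays were -0.017 and -0.0098, so the members lay lower by less than on the mean of both. The members' median was above that of all intervals under some alternatives, with 0.043 against 0.016 with normexp and no loess, and 0.030 against 0.015 with the length trend removed. In the authors' deposited table the medians were about equal, at 0.0515 over all 2240 members, untested ones included, and 0.051 over all intervals. Over the tested members alone its medians were 0.050 on replicate 1 and 0.023 on replicate 2. Those of all its intervals were 0.046 and 0.018. The ratio moved with fragment length in members as in all intervals. On replicate 1 the members' median was 0.13 at 200 to 400 bp, 0.20 at 601 to 800 bp, -0.25 at 1401 to 1600 bp and -0.05 at 1801 to 2000 bp (0.080, 0.13, -0.28 and -0.03 over all intervals of these lengths). On replicate 2 it was 0.14, 0.01, -0.04 and -0.16 in the same classes (0.096, -0.04, -0.05 and -0.16 over all intervals). The courses differed between the arrays, with the lowest of these 4 values at 1401 to 1600 bp on replicate 1 and at 1801 to 2000 bp on replicate 2. The part of length in the single differences was not tested beyond the removal of its trend.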

How the data were processed

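Per the file headers, the authors read spot intensities from array design 017202, with positions on mm8, using Feature Extraction 10.5.1.1 and its CGH settings; version 9.1.3.1 is given in the submitters' processing notes. Per the file headers, background subtraction, spatial detrending and dye normalization had been applied to the deposited processed intensity. The deposited LogRatio column is log10 of red over green and was not used further. The deposited table of log2 values per interval states no scale, centring or direction; over tested members its columns followed the ratios computed here with r = 0.94 and 0.89 and slopes of 0.91 and 0.85, which gives log2 and PVH over ARH, while its centring is unknown (column medians 0.046 and 0.018). Flags for well above background are a further deposited score of 0 or 1.

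Here the log2 of PVH over ARH was taken from the processed intensity, with the dye swap turned and each array centred on its median. Control spots, 79 outlier spots and probes not well above background in either channel of an array were left out (84708 probes kept), spots of 1 probe and then probes of an interval were averaged, and limma 3.58.1 in R 4.3.3 was run on intervals with at least 2 probes (lmFit, eBayes, Benjamini-Hochberg over all 22350). There was 1 residual degree of freedom, and eBayes gave every interval the same standard error of 0.26, so the adjusted p-values rest on that estimate; precision is limited by the 2 arrays. The fit was also run on simulated data, whose noise was smaller than that of these arrays and did not follow signal or length. There it recovered the larger changes put in and only part of the smallest. The share of unchanged intervals among its calls was well above the adjusted p threshold. Recovery in the arrays themselves can be lower. Members and tests were chosen with earlier results of these data known. The naming rule took, per direction, up to 12 called members by size, and members by lowest signal, nearness to the limit, most probes, length, distance, probe range and smallest ratio; the 2 further called members, on chromosomes 6 and 11, were added after their values were seen. Normexp used median spot signals, since the files used here hold no mean spot signal.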

Additional observations from a re-analysis of the deposited data

How the results depend on the processing

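The 2240 members became 1378 with 50000 bp of isolation; other limits, probe numbers, averages and signals gave 2062 to 2821, and without replicate 1 or 2 there were 2154 and 2344. Members that differed between the nuclei (16) numbered 12 to 20 under the remaining alternatives, but 10 with normexp and loess, 5 with the length trend removed, 9 with 50000 bp of isolation, 0 with normexp alone (limma; 23 at an unadjusted p under 0.05, and 37 calls over all intervals) and 0 with unturned signs, which measure dye (limma; 91 unadjusted). With the length trend removed, the 11 lost members had ratios of -1.20 to -0.81, or 0.96 and 1.03, and the prior degrees of freedom in limma went from infinite to 10.0. The cause of these losses was not tested. No count of calls can be had from a single array. Of 201 alternative values with a test for the 16 called members, 155 kept direction and call, 46 lost the call and 0 reversed. The median ratio (-0.046) was 0.043 with normexp, 0.0016 with normexp and loess, -0.021 with loess on processed signals, -0.023 with no filter on dim probes, -0.027 with only probes well above background in all channels, -0.031 and -0.070 with at least 1 or 3 probes, -0.037 with the median over probes, 0.0515 in the deposited table, 0.030 with the length trend removed, and -0.043 to -0.032 on a single array. The values with no filter and in the deposited table are over all 2240 members. Median length was 1535 bp and 1478 bp with limits of 8.0 and 8.4. The r between arrays was 0.13 with no filter on dim probes. The comparisons that follow were added after seeing the data. The end-to-centre difference of long members (0.85) was 0.62 with 60-base probes only and 0.72 to 1.04 on a single array; the dim shares at 601 to 800 bp and 1801 to 2000 bp stayed within 8.69% to 11.9% and 86.9% to 90.3%. The test already pairs the nuclei, since each array sets a PVH pool against an ARH pool. With 1 group of arrays no further pairing was possible. Low signal left 435 members untested. With no filter 0 of them were called in limma (17 at an unadjusted p under 0.05), beside 17 of all 2240 members and 325 of 23279 intervals.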

Other observations

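The members that fell out of the test had ratios too when no filter on background was set. Their medians were 0.084 on replicate 1 and 0.078 on replicate 2, with SDs over the 435 members of 0.33 and 0.29. The median negative control spot was higher in PVH too. Its intensity was 6.78 in PVH and 6.04 in ARH on replicate 1, and 7.23 and 5.34 on replicate 2. The part of background in these ratios was not tested. In the 209 members with a mean log2 signal under 4, the medians without a filter were 0.10 and 0.19, and 4.25% of probes were well above background in all channels. The median range between probes was 1.61 in these members and 3.20 in the 371 members between 5 and 6.

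In members, channels of 1 array followed each other more closely than channels of 1 nucleus. Over the 2240 members, the log2 signals of PVH and ARH correlated with r = 0.966 on replicate 1 and 0.980 on replicate 2. PVH on replicate 1 and PVH on replicate 2 had r = 0.893, and ARH on the 2 arrays 0.953. In brighter isolated fragments the values were 0.985, 0.985, 0.965 and 0.990, so there ARH on the 2 arrays was the closest pair of these. Channels of 1 nucleus had different dyes on the 2 arrays, while PVH on one array and ARH on the other shared a dye. In members PVH on replicate 1 and ARH on replicate 2 had r = 0.906, and ARH on replicate 1 and PVH on replicate 2 had 0.935. Both were above the r between the PVH channels. The part of dye was not tested. These are descriptions over fragments that share arrays and probes, and the signal of members was used to choose them.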
